A study of Homo sapiens with 8 samples.

Results

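The genes described here encode the subunits of the respiratory chain and of ATP synthase that are carried in the nucleus. They were picked by a rule on the symbol: protein-coding genes whose symbols begin with NDUFA, NDUFB, NDUFC, NDUFS or NDUFV (complex I), UQCR (complex III), COX4 to COX8 (complex IV) or ATP5 (complex V), together with SDHA to SDHD (complex II) and CYC1 (complex III), with the complex I assembly factors named NDUFAF left out. This gave 92 of the 27945 genes in the deposited table, of which 40 were assigned to complex I, 4 to complex II, 10 to complex III, 17 to complex IV and 21 to complex V. The prefix places NDUFA4 and its paralog NDUFA4L2 with complex I, although NDUFA4 is known today as a subunit of complex IV.

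Complexes I to IV of the inner mitochondrial membrane pass electrons from NADH and succinate to oxygen, and complexes I, III and IV pump protons as they do so. Complex V, the ATP synthase, lets the protons return through a ring of c subunits and uses the turning of that ring to make ATP in its F1 head. Endothelial cells are known to take much of their ATP from glycolysis. The chain is built from nuclear genes and from a small set of genes on mitochondrial DNA, and transcripts of the latter were not analysed here.

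EA.hy926 is an established line made by fusing human umbilical vein endothelial cells with the lung carcinoma line A549. RNA-seq libraries, made after ribosomal RNA had been removed from total RNA, came from 3 groups: the EA.hy926 control line (2 libraries), clonal lines in which the enhancer E2 was removed (ΔE2, 3 libraries) and clonal lines in which SE12313-b was removed (ΔSE12313-b, 3 libraries). Both elements lie within the same super-enhancer, SE12313, and SE12313-b was included by the study as an element that had been inactive in reporter assays. Deletions were made with Cas9 and guide RNAs given as a ribonucleoprotein, all cells grew in DMEM with serum, and each ΔE2 and ΔSE12313-b library is a clone of its own. For its proliferation assay the study describes control cells that were given guide RNAs and kept alongside the clones. Whether the sequenced control is that line is not stated in the sources used here, and the labels do not say whether its 2 libraries came from separate cultures, so the p values measure the spread between these libraries, which for the control may be technical. Both deletions were compared with the same 2 control libraries.

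The libraries held 12067560 to 19101149 reads. The share of reads on named genes was counted on the transcript of highest mean FPKM of each gene. It was 64.2% to 64.6% in the control, 70.0% to 73.3% in ΔE2 and 75.2% to 78.4% in ΔSE12313-b. The libraries of the 3 groups did not overlap in this share. Read counts of the 2 control libraries differed little more than sampling noise (chi-square of 1.19 per degree of freedom over 12855 genes), whereas clones of one deletion differed more (4.00 to 22.9). Of 10 endothelial markers, 8 had an FPKM of at least 1 in every library, while VWF reached this level in 2 libraries and KDR in none. The summed level of 6 epithelial markers was 361 to 363 FPKM in the control, 1084 to 1210 in ΔE2 and 811 to 1069 in ΔSE12313-b, carried by KRT7, KRT8 and KRT18, with EPCAM, KRT19 and CDH1 below 1 in every library. The 4 leukocyte and 4 fibroblast markers stayed below 1 FPKM in all 8 libraries. The part of keratin levels or of the share of reads on genes in the results below was not tested.

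The promoters of some members that changed most, and of some that did not, are shown here. Shared regulation of the members was not tested. Windows of 300 bases, from 250 bases before the RefSeq start site to 50 after it (GRCh38.p14), were at hand for 72 of the 92 members, 3 of them under another symbol of the same gene. Capitals mark exact matches, on either strand, to 7 motifs: the core of the NRF1 site (CGCATGCG), the ETS family site bound by GABPA (CCGGAAG), the YY1 site (AAGATGGC), the SP1 box (GGGCGG), the cyclic AMP response element (TGACGTCA), the E-box (CACGTG) and the CCAAT box (CCAAT). None of the 7 motifs contains another. The first 5 windows belong to members that were at least 2-fold higher in both deletions, ATP5F1C is a member that rose and has an NRF1 core, and NDUFB4 and NDUFV1 were called in neither deletion. On GRCh38.p14 they lie at chr7:140696458-140696757 (NDUFB2, plus strand), chr2:201071751-201072050 (NDUFB3, plus), chr9:32573110-32573409 (NDUFB6, minus), chr17:48892537-48892836 (ATP5MC1, plus), chr1:111449214-111449513 (ATP5PB, plus), chr10:7787927-7788226 (ATP5F1C, plus), chr3:120596086-120596385 (NDUFB4, plus) and chr11:67606686-67606985 (NDUFV1, plus).
NDUFB2: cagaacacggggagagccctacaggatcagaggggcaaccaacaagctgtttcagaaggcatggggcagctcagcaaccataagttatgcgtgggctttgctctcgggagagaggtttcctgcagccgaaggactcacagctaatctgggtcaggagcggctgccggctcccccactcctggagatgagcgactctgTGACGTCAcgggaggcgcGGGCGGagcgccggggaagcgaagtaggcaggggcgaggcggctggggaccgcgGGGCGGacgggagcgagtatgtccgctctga
NDUFB3: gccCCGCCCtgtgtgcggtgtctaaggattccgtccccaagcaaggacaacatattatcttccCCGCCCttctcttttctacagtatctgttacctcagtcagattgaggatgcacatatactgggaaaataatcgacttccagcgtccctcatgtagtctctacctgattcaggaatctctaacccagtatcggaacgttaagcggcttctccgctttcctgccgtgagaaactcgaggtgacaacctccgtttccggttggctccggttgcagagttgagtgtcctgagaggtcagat
NDUFB6: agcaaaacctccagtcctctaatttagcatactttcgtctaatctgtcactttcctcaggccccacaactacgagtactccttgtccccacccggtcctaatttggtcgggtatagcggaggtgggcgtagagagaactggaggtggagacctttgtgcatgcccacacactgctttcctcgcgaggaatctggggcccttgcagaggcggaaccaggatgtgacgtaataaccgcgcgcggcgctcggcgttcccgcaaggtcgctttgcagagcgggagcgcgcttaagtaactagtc
ATP5MC1: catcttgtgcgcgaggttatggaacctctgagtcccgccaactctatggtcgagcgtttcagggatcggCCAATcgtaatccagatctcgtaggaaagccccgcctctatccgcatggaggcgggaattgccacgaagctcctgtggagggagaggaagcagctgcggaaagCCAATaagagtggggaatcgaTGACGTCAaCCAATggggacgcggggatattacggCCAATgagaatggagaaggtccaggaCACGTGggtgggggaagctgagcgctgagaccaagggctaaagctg
ATP5PB: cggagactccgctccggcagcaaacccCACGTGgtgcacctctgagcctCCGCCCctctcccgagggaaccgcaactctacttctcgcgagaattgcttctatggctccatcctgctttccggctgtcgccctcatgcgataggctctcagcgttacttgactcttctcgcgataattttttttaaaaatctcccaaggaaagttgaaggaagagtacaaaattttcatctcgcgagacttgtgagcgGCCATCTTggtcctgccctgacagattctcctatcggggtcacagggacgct
ATP5F1C: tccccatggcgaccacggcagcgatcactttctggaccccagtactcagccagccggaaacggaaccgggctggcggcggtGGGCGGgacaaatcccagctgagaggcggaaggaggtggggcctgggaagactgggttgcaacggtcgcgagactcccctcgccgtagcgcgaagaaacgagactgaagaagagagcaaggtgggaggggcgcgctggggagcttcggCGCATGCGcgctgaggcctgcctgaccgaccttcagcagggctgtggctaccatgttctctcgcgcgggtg
NDUFB4: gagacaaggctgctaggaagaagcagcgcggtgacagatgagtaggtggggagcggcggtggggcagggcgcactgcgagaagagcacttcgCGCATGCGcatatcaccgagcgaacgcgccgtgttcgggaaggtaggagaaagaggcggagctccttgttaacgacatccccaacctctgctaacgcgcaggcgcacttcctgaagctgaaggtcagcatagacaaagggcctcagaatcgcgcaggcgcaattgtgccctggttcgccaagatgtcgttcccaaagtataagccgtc
NDUFV1: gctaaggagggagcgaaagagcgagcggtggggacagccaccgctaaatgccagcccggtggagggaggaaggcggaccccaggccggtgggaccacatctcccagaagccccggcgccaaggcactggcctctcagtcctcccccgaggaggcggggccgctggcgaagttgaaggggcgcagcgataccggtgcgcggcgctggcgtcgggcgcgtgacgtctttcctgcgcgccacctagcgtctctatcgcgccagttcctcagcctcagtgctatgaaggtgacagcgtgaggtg

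No single motif is found in all of these windows. NDUFB2 and ATP5MC1 each hold a cyclic AMP response element, at positions -53 and -57 from the start site, ATP5PB has a YY1 site that spans the start, and NDUFB6 and NDUFV1 hold no match to any of the 7. Over the 67 tested members with a window, the NRF1 core was found in 11 (16.4%, against 2.5% of all 27305 genes with a window), the ETS site in 21 (31.3%, against 12.2%), the YY1 site in 12 (17.9%, against 3.5%) and the SP1 box in 44 (65.7%, against 48.3%). The cyclic AMP response element was found in 5 (7.5%, against 2.2%), the E-box in 7 (10.4%, against 8.8%) and the CCAAT box in 23 (34.3%, against 39.7%). Among the 12 members with a window that rose at least 2-fold in either deletion, 1 had the NRF1 core, 3 the ETS site, 3 the YY1 site and 10 the SP1 box. Among the 12 with a window that were called in neither deletion these numbers were 3, 2, 3 and 5, and the other 3 motifs were each in 1 to 5 genes of either set. The 27305 genes were not limited to protein-coding genes or to genes expressed in these cells, as the tested members were. A match describes letters in these windows only.

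The 92 members ranged from absent to among the abundant transcripts of these cells. FPKM, the fragments per kilobase of transcript scaled to the reads of the library, was used as the level, so that genes can be compared per length. Of the 92, 84 reached an FPKM of 0.5 in 2 or more libraries and were tested. Their mean over the 8 libraries ran from 4.20 to 315 FPKM, and the fewest reads behind a tested value was 80. In the control the median member had a level of 23.4 FPKM in complex I, 34.2 in complex II, 31.5 in complex III, 50.6 in complex IV and 32.2 in complex V. The summed level of the 20 tested members of complex V was 947 and 929 FPKM in the control libraries, 1486, 1429 and 1489 in ΔE2 and 1762, 1680 and 1833 in ΔSE12313-b.

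The 8 members that were not tested are mostly the copies known from other tissues. COX4I2, the subunit 4 form of lung, COX6A2 and COX7A1, the heart and muscle forms, and COX8C, the testis form, had 0 reads in all 8 libraries. A count of 0 allows up to 3 reads in a library, counting error only. COX6B2 and COX7B2, also testis forms, had at most 1 and 2 reads in a library. ATP5MGL, a retrogene copy of ATP5MG, had 0 to 5 reads and NDUFA4L2, a paralog of NDUFA4 known as a target of hypoxia signaling, 0 to 7. In each of these pairs the widely expressed partner was well above the filter, with COX4I1 at 137 to 181 FPKM, COX6A1 at 73.5 to 135, COX6B1 at 71.6 to 133 and COX8A at 49.3 to 104.

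Most tested members were higher in both deletions, and none was called lower on the FPKM as deposited. In ΔE2, 51 of the 84 rose (60.7%) and 0 fell, where a call is an adjusted p under 0.05 by limma, over all 13789 genes tested. The background was 34.7% of all genes higher and 19.4% lower. In ΔSE12313-b, 62 of the 84 rose (73.8%) and 0 fell, against 43.0% and 16.4% of all genes. No member was lower at an unadjusted p under 0.05 in either deletion, and none was called lower by limma voom on the reads recovered from the FPKM. At least 2-fold higher were 6 members in ΔE2 (7.14%, background 11.2%) and 14 in ΔSE12313-b (16.7%, background 14.7%), so shares close to or below the background. The median member changed by 0.43 on the log2 scale in ΔE2 and by 0.63 in ΔSE12313-b, beside 0.14 and 0.27 for all genes tested. Since these are bulk samples, more of a type of cell and more RNA per cell cannot be told apart. FPKM is scaled to the reads of the library, so amounts per cell were not measured. Of the reads on genes, counted on the same transcripts, members took 0.486% to 0.490% in the control, 0.615% to 0.649% in ΔE2 and 0.668% to 0.681% in ΔSE12313-b.

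Part of this rise is shared by all genes, and the counts depend on how the libraries are scaled. With each library centred on its median log2 ratio, which lowers the median of all genes by 0.16 in ΔE2 and 0.29 in ΔSE12313-b, 39 members were higher and 1 lower in ΔE2 (background 26.6% and 26.1%), and 46 higher and 4 lower in ΔSE12313-b (27.7% and 27.3%). After quantile normalization 25 were higher and 8 lower in ΔE2 (26.0% and 27.3%), and 36 higher and 11 lower in ΔSE12313-b (27.8% and 27.3%). Among genes of similar abundance, the 5506 with a mean FPKM of at least 10, the median was 0.30 (ΔE2) and 0.45 (ΔSE12313-b) as deposited and 0.02 and 0.04 after quantile normalization, where the members' medians were 0.10 and 0.20. For calls made in both deletions at once, the share of all genes is not given here. In all 3 scalings 23 members were called higher in both deletions. They comprise 10 of complex V (ATP5F1A, ATP5F1B, ATP5F1C, ATP5MC1, ATP5MC3, ATP5MF, ATP5MF-PTCD1, ATP5PB, ATP5PF and ATP5PO), 9 of complex I (NDUFA4, NDUFA8, NDUFB2, NDUFB3, NDUFB6, NDUFB11, NDUFS3, NDUFV2 and NDUFV3), 3 of complex IV (COX5A, COX6C and COX8A), UQCRC1 of complex III and none of complex II.

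**Figure D1:**
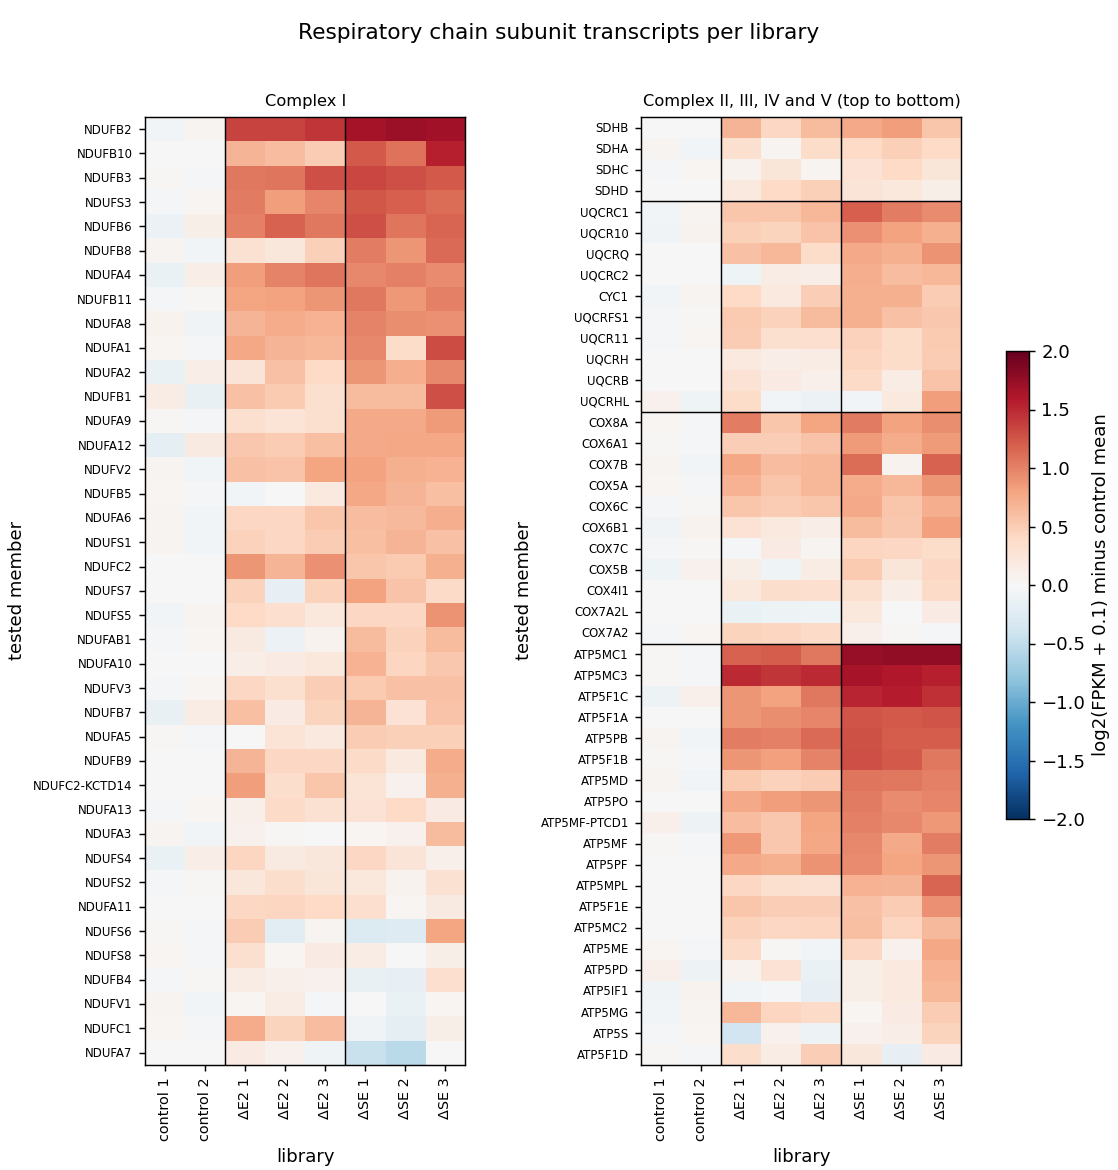
Level of each of the 84 tested members in each library, as log2(FPKM + 0.1) minus the mean of the 2 control libraries (color scale from -2 to 2), with members in rows by complex and libraries in columns. Most rows are above the control in all 6 clones, and NDUFB2, ATP5MC1 and ATP5MC3 have the strongest color, while NDUFV1 stays near the control. NDUFA7 changed by -0.33 in ΔSE12313-b, which was not called on the FPKM as deposited. Every clone was above both controls in 66 members in ΔE2 and 72 in ΔSE12313-b, beside 44.8% and 51.5% of all genes. ΔSE is short for ΔSE12313-b.

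The 5 complexes did not move by the same amount. Complex V had the highest median change, 0.58 in ΔE2 and 0.89 in ΔSE12313-b, with 14 of its 20 tested members higher in each. The medians were 0.41 and 0.59 in complex I (23 and 28 of 39 higher), 0.38 and 0.63 in complex III (6 and 9 of 10) and 0.41 and 0.66 in complex IV (6 and 8 of 11). Complex II had the lowest medians, 0.30 and 0.37, with 2 and 3 of 4 higher. Complex V also had the highest median with centred libraries (0.42 and 0.60) and after quantile normalization (0.29 and 0.43), where complex II turned to -0.04 and -0.07. Differences between complexes were not tested. Counting NDUFA4 with complex IV gave that complex medians of 0.47 and 0.67.

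**Figure D2:**
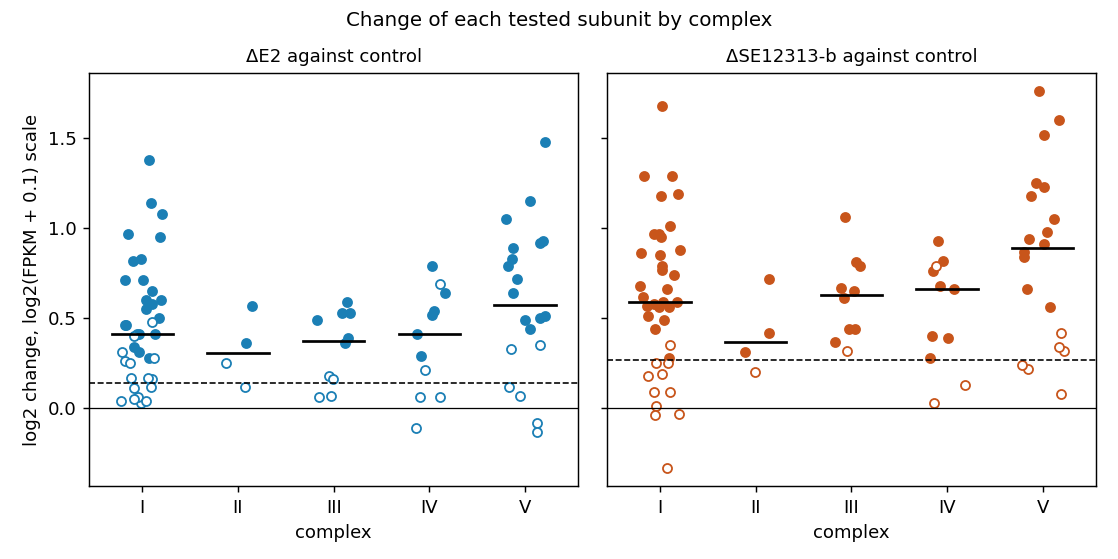
Log2 change of each tested member in ΔE2 (left) and ΔSE12313-b (right) against the control, by complex. Filled points have an adjusted p under 0.05, open points do not, solid bars are the medians of the complexes (0.58 and 0.89 in complex V, 0.30 and 0.37 in complex II) and the dashed line is the median of all genes tested, 0.14 and 0.27. Quantile normalization turns the complex II medians to -0.04 and -0.07.

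The ring of complex V that protons turn is made of identical c subunits, which 3 genes encode. ATP5MC1, ATP5MC2 and ATP5MC3 differ in the targeting peptide that is cut off after import, and the mature protein is the same. ATP5MC2 (chr12:54058944-54069866 on GRCh37, the build of the table, minus strand) was the main transcript of the control, at 114 and 112 FPKM. ATP5MC1 (chr17:46970148-46973232, plus strand) had 12.6 and 12.2 FPKM in the control libraries, 28.3, 28.7 and 25.8 in ΔE2 and 41.8, 42.4 and 42.8 in ΔSE12313-b, so that the 3 groups stand fully apart. It rose by 1.15 ± 0.07 (SE) on the log2(FPKM + 0.1) scale in ΔE2 (limma, adjusted p = 1.02e-05) and by 1.76 ± 0.07 in ΔSE12313-b (limma, adjusted p = 1.04e-06), the largest change of any member in that deletion. ATP5MC3 (chr2:176040986-176046490, minus strand) had 11.8 and 11.3 FPKM in the control, 32.7, 31.4 and 32.7 in ΔE2 and 36.3, 35.1 and 34.0 in ΔSE12313-b. Its change of 1.48 ± 0.07 was the largest of any member in ΔE2 (limma, adjusted p = 1.85e-06), and in ΔSE12313-b it was 1.60 ± 0.07.

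ATP5MC2 rose much less than its paralogs. It had 156, 151 and 153 FPKM in ΔE2 and 171, 152 and 177 in ΔSE12313-b, changes of 0.44 ± 0.08 and 0.56 ± 0.08, and after quantile normalization these were 0.00 and -0.02. Its share of the summed FPKM of the trio was 82.4% and 82.6% in the control libraries. In ΔE2 it was 71.9%, 71.5% and 72.4%, and in ΔSE12313-b 68.7%, 66.2% and 69.8%. Multiplying a whole library by 1 factor cannot alter this share, whereas quantile normalization can. The 3 groups do not overlap in this share. ATP5MC1 supplied 9.04% to 9.11% in the control, 12.2% to 13.6% in ΔE2 and 16.8% to 18.5% in ΔSE12313-b, and ATP5MC3 8.33% to 8.53%, 14.9% to 15.5% and 13.4% to 15.3%.

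Of the 5 subunits of the F1 head and its central stalk, 4 rose in both deletions. ATP5F1B, the catalytic β subunit and the most abundant member, had 177 and 172 FPKM in the control, 321, 307 and 348 in ΔE2 and 426, 408 and 361 in ΔSE12313-b. ATP5F1A, the α subunit beside it in the head, had 70.5 and 70.8 FPKM in the control, 131, 134 and 139 in ΔE2 and 170, 166 and 170 in ΔSE12313-b. ATP5F1C, the γ subunit that forms the turning stalk, had 25.6 and 29.7, then 51.1, 48.5 and 57.6, then 79.2, 81.9 and 75.9. For all 3 genes the groups stand apart, with every clone above both controls. The log2 changes in ΔE2 were 0.89 ± 0.09, 0.93 ± 0.06 and 0.92 ± 0.10 for β, α and γ, and in ΔSE12313-b they were 1.18 ± 0.09, 1.25 ± 0.06 and 1.52 ± 0.10 (limma, adjusted p between 2.40e-06 and 0.000161). ATP5F1E, the small ε subunit, rose by 0.51 ± 0.12 and 0.66 ± 0.12, and ATP5F1D, the δ subunit, was not called in either deletion (0.33 ± 0.14 and 0.08 ± 0.14).

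**Figure D3:**
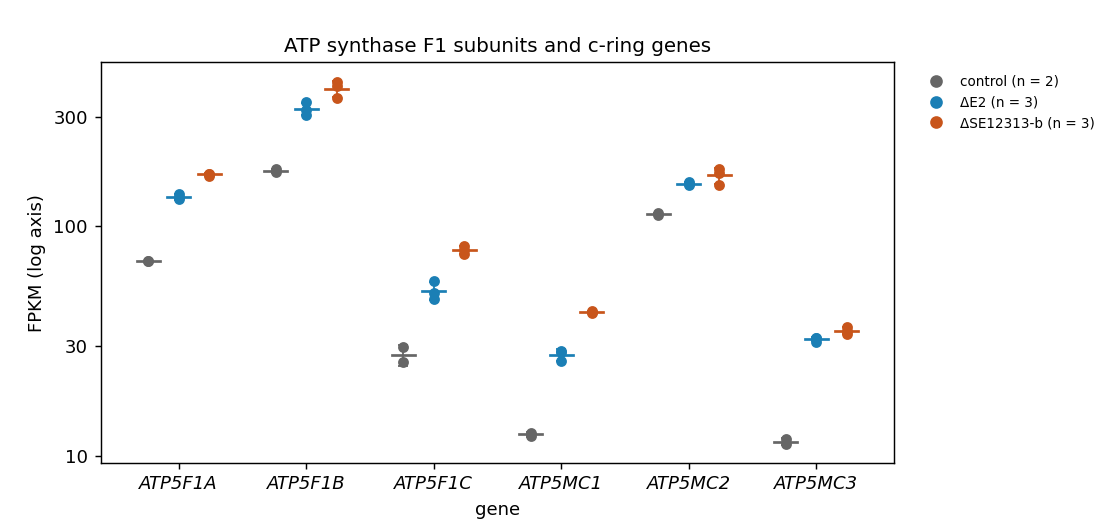
FPKM on a log axis of 3 subunits of the F1 head and of the 3 c-ring genes, with 1 point per library, a bar at the mean and error bars of 1 SD (control n = 2, ΔE2 n = 3, ΔSE12313-b n = 3). ATP5MC1 and ATP5MC3 start near 12 FPKM and rise to between 25.8 and 42.8, while ATP5MC2 moves from 112 to between 151 and 177. After quantile normalization ATP5MC2 changed by 0.00 and -0.02.

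The peripheral stalk, which holds the head still against the membrane, had 4 tested members and 3 of them rose in both deletions. ATP5PB, subunit b (chr1:111991743-112004525, plus strand), had 25.3 and 23.5 FPKM in the control, 49.5, 48.9 and 53.4 in ΔE2 and 59.3, 56.7 and 56.5 in ΔSE12313-b. Its changes were 1.05 ± 0.07 (limma, adjusted p = 1.70e-05) and 1.23 ± 0.07 (limma, adjusted p = 5.76e-06). ATP5PO, the oligomycin sensitivity subunit, rose by 0.83 and 0.98 and ATP5PF, coupling factor 6, by 0.79 and 0.87, whereas ATP5PD, subunit d, was not called (0.07 and 0.34). Of the small membrane subunits, ATP5MD had 53.9 and 49.8 FPKM in the control, 71.6 to 74.3 in ΔE2 and 104 to 109 in ΔSE12313-b, changes of 0.50 ± 0.06 and 1.05 ± 0.06. ATP5IF1, the inhibitor that binds the head when the proton gradient falls, was not called in either deletion, with 26.2 and 29.1 FPKM in the control, 24.5 to 27.3 in ΔE2 and 29.9 to 43.6 in ΔSE12313-b. ATP5S, a coupling factor that is no structural subunit, was not called either (-0.13 ± 0.17 and 0.22 ± 0.17).

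In complex I the accessory subunits of the B group, most of which lie in the proton-pumping membrane arm, held 5 of the 6 members of the complex that rose at least 2-fold in ΔSE12313-b and all 3 that did so in ΔE2. NDUFB2 (chr7:140396481-140406446, plus strand) had 17.9 and 19.5 FPKM in the control, 47.7, 47.6 and 50.5 in ΔE2 and 59.4, 61.3 and 60.0 in ΔSE12313-b. Its changes were 1.38 ± 0.07 (limma, adjusted p = 2.89e-06) and 1.68 ± 0.07 (limma, adjusted p = 1.02e-06). The groups stand apart, and NDUFB2 was also at least 2-fold higher in both deletions with centred libraries and after quantile normalization, as was ATP5MC3. NDUFB3 (chr2:201936462-201950473, plus strand) had 15.3 and 14.7 FPKM in the control, 31.1, 31.7 and 36.9 in ΔE2 and 38.1, 36.8 and 35.4 in ΔSE12313-b, changes of 1.14 ± 0.09 and 1.29 ± 0.09. NDUFB6 (chr9:32553524-32573182, minus strand) had 7.37 and 8.63, then 16.2, 18.2 and 16.7, then 19.6, 16.9 and 18.0, changes of 1.08 ± 0.10 and 1.18 ± 0.10. In both genes the clones of the 2 deletions overlap, all above the controls.

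NDUFB8 and NDUFB10 passed 2-fold in ΔSE12313-b and not in ΔE2. NDUFB8, at the far end of the membrane arm, had 54.1 and 50.5 FPKM in the control, 61.4 to 72.8 in ΔE2 and 96.5 to 115 in ΔSE12313-b. NDUFB10 had 38.8 and 38.3, then 54.9 to 62.1, then 81.7 to 113. Their changes in ΔSE12313-b were 1.01 ± 0.10 and 1.29 ± 0.13. Relative to the median of its chromosome arm, NDUFB8 changed by 0.12 in ΔE2 and 0.24 in ΔSE12313-b. For NDUFB10 these values were 0.86 and 0.94. NDUFS3, a core subunit of the arm that faces the matrix, had 20.1 and 21.3 FPKM in the control, 42.4, 37.1 and 41.0 in ΔE2 and 49.3, 47.4 and 45.1 in ΔSE12313-b, changes of 0.95 ± 0.08 and 1.19 ± 0.08. NDUFA4 had 12.5 and 14.9 FPKM in the control, 24.5 to 28.8 in ΔE2 and 26.5 to 27.4 in ΔSE12313-b, and rose by 0.97 ± 0.10 in each.

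Some other members of complex I changed less on the FPKM as deposited. NDUFV1, the core subunit that binds FMN and takes electrons from NADH, had 29.8 and 27.8 FPKM in the control, 29.6, 31.8 and 28.0 in ΔE2 and 28.6, 26.2 and 29.7 in ΔSE12313-b, and all groups overlap. The 95% interval of its log2 change was -0.15 to 0.25 in ΔE2 and -0.24 to 0.17 in ΔSE12313-b. NDUFV2, its partner in the NADH module, rose by 0.65 ± 0.09 and 0.74 ± 0.09. NDUFA7 had 17.2 and 17.0 FPKM in the control, 16.1 to 19.2 in ΔE2 and 12.5, 11.7 and 17.1 in ΔSE12313-b, with changes of 0.06 ± 0.16 and -0.33 ± 0.16 that did not pass the test. With centred libraries NDUFA7, NDUFV1, NDUFC1 and COX7A2 were called lower in ΔSE12313-b and COX7A2L in ΔE2. NDUFB4, the most abundant member of complex I in the control, was at 86.3 and 88.8 FPKM there, 93.0 to 97.0 in ΔE2 and 78.6, 78.3 and 111 in ΔSE12313-b, and was called in neither. NDUFA3 (0.03 ± 0.17 and 0.25 ± 0.17) was called in neither deletion. NDUFA5, with the lowest mean of the complex, rose in ΔSE12313-b by 0.49 ± 0.10 and changed by 0.16 ± 0.10 in ΔE2. In all, 15 of the 84 members were called in neither deletion and 44 were higher in both.

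Complex II, succinate dehydrogenase, is the member of the chain that is also an enzyme of the tricarboxylic acid cycle. SDHB, the iron-sulfur subunit, had 27.7 and 28.1 FPKM in the control, 44.7, 37.2 and 43.2 in ΔE2 and 47.3, 50.1 and 41.1 in ΔSE12313-b, and rose by 0.57 ± 0.11 and 0.72 ± 0.11. SDHA, the flavoprotein that oxidizes succinate, had 42.2 and 38.8, then 50.3, 41.9 and 52.5, then 53.3, 56.2 and 53.2, and passed the test in ΔSE12313-b (0.42 ± 0.10) but not in ΔE2 (0.25 ± 0.10). The difference between the 2 deletions was itself not called (limma, adjusted p = 0.206). Of the membrane anchors, SDHC changed by 0.12 ± 0.09 in ΔE2 and rose by 0.31 ± 0.09 in ΔSE12313-b, while SDHD rose by 0.36 ± 0.09 in ΔE2 and changed by 0.20 ± 0.09 in ΔSE12313-b. After quantile normalization SDHA, SDHC and SDHD all had negative changes in ΔSE12313-b (-0.07, -0.07 and -0.29).

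In complex III, UQCRC1, one of the large core proteins on the matrix side, was the single member at least 2-fold higher, in ΔSE12313-b. It had 36.5 and 39.0 FPKM in the control, 55.6, 55.6 and 59.8 in ΔE2 and 86.6, 77.0 and 73.1 in ΔSE12313-b, changes of 0.59 ± 0.09 and 1.06 ± 0.09. Its partner UQCRC2 was at 40.1 and 40.2 in the control and 37.9 to 44.5 in ΔE2, where it was not called, and at 61.7 to 66.4 in ΔSE12313-b. CYC1, cytochrome c1, had 49.2 and 53.3 FPKM in the control, 58.6 to 72.0 in ΔE2 and 73.2 to 84.2 in ΔSE12313-b, changes of 0.36 ± 0.11 and 0.65 ± 0.11. UQCRFS1, the Rieske iron-sulfur protein, rose by 0.53 and 0.61. UQCRH, the hinge protein, rose in ΔSE12313-b by 0.44 ± 0.07 (0.16 ± 0.07 in ΔE2, not called), and its near copy UQCRHL was called in neither. Their transcripts are so alike that reads may have been assigned to either, and both are uncertain. UQCRB, with the lowest mean of the complex, changed by 0.18 ± 0.12 and 0.37 ± 0.12, the latter called.

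Complex IV had 11 tested members and none changed 2-fold. COX8A rose most, from 52.0 and 49.3 FPKM in the control to 103, 74.4 and 87.6 in ΔE2 and 104, 88.8 and 96.3 in ΔSE12313-b (0.79 ± 0.13 and 0.93 ± 0.13). COX6A1 rose by 0.52 ± 0.06 and 0.82 ± 0.06 and COX6C, with the lowest mean of the complex, by 0.54 ± 0.08 and 0.68 ± 0.08. COX4I1, the regulatory subunit that binds ATP and the member of the complex with the highest mean, had 140 and 137 FPKM in the control, 161, 176 and 174 in ΔE2 and 173, 152 and 181 in ΔSE12313-b. It was called higher in both (0.29 ± 0.09 and 0.28 ± 0.09), but after quantile normalization its changes were -0.13 and -0.28. COX7A2L, a relative of COX7A2 known for joining complexes III and IV in supercomplexes, had 46.1 and 45.8 FPKM in the control, 41.7 to 43.4 in ΔE2 and 46.4 to 53.1 in ΔSE12313-b and was called in neither. All 3 ΔE2 clones lay below both controls, the only tested member of which this was true, beside 28.7% of all genes.

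COX7B and NDUFA1 share a feature of 1 clone. COX7B had 51.9 and 47.8 FPKM in the control, 76.3 to 85.6 in ΔE2 and 108, 52.1 and 113 in ΔSE12313-b, and NDUFA1 had 57.5 and 54.4, then 89.0 to 95.5, then 109, 72.1 and 139. Replicate 2 of ΔSE12313-b is low in both. Both genes lie on the long arm of the X chromosome, where the median of 264 protein-coding genes was -0.41 (log2) in that library against the other 2 ΔSE12313-b clones, beside -0.01 over all arms. COX7B missed the threshold in both deletions (0.69 ± 0.30 and 0.79 ± 0.30).

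Replicate 3 of ΔSE12313-b stood above the other clones of its group in short transcripts. Of the 16 members in which it was more than 0.40 (log2) above the mean of replicates 1 and 2, 14 have transcripts of at most 700 nt. NDUFS6, of 542 nt, had the largest gap, with 21.6, 21.9 and 45.2 FPKM in the 3 clones, beside 26.4 and 25.8 in the control and 37.3, 22.4 and 27.2 in ΔE2. It was called in neither deletion (0.12 ± 0.33 and 0.09 ± 0.33). Over the 37 tested members of at most 700 nt the median gap to the other clones was 0.17, and over the 47 longer ones -0.02, and the same values, 0.17 and -0.02, were found over 337 short and 11327 longer protein-coding transcripts. In replicate 2 the short members had a median of -0.21 against the other clones of its group. The part of transcript length in these results was not tested. Without replicate 3, 58 members were higher in ΔSE12313-b and 1, NDUFA7, was lower, and 5 members (NDUFC1, COX7A2, NDUFA7, ATP5MG and NDUFB4) were higher and 22 lower in ΔE2 than in ΔSE12313-b. The shares of all genes without this library are not given here.

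The deletions also differed from each other. Of the 84 members, 26 were lower in ΔE2 than in ΔSE12313-b (31.0%, background 19.3%) and 2 were higher (2.38%, background 6.69%), with none at 2-fold by limma, none at an unadjusted p under 0.05 and 2-fold, and none by limma voom. With centred libraries 13 were lower (background 11.0%) and 6 higher (background 10.5%). The median difference of ΔE2 minus ΔSE12313-b was -0.19, beside -0.11 over all genes, and -0.06 with centred libraries. NDUFB10 (-0.68), NDUFB8 (-0.67), NDUFB5 (-0.64), ATP5MC1 (-0.62), UQCRC2 (-0.60) and ATP5F1C (-0.59) had the largest differences among the members lower in ΔE2. NDUFB5 had 28.3 and 26.6 FPKM in the control, 26.3 to 31.3 in ΔE2 and 41.6 to 46.9 in ΔSE12313-b. The 2 members higher in ΔE2 were NDUFC1 and COX7A2. NDUFC1, a small subunit of the membrane arm, had 17.0 and 16.2 FPKM in the control, 27.8, 22.7 and 25.6 in ΔE2 and 15.8, 14.7 and 18.0 in ΔSE12313-b, and COX7A2 had 47.4 and 50.3, then 66.2, 65.5 and 63.6, then 52.3, 49.8 and 47.7. In both, ΔSE12313-b overlaps the control and ΔE2 lies above it. The difference was 0.65 ± 0.10 for NDUFC1 (limma, adjusted p = 0.00381) and 0.38 ± 0.06 for COX7A2 (limma, adjusted p = 0.00388).

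These differences went with the chromosome arm on which the genes lie. On the short arm of chromosome 16, which carries NDUFB10, NDUFAB1 and UQCRC2, the median of 312 protein-coding genes was -0.57, and all 3 members were called lower in ΔE2. The arms 10p (median -0.60, with ATP5F1C) and 10q (-0.48, with NDUFB8 and ATP5MD) showed the same, 12p had -0.42 (NDUFA9, -0.48) and 3q had -0.38. NDUFB5, on 3q, differed from that median by -0.26, and NDUFB4, on the same arm, by 0.48. At the other end, 6q, with COX7A2, had the highest median of 40 arms, 0.43, and 4q, with NDUFC1, the next, 0.33. Over the 83 tested members on an arm with at least 50 tested genes, the difference of the member and the median of its arm had a Pearson r of 0.78. This is a description across genes that share the same libraries. Relative to the arm, ATP5F1C differed by 0.01, COX7A2 by -0.05 and NDUFC1 by 0.31. ATP5MC1, on 17q with a median of -0.14, differed from its arm by -0.48. Arm medians also differed against the control. In ΔSE12313-b they were highest on 10p (0.82) and 10q (0.78), beside 0.33 over all protein-coding genes. Relative to these arms, ATP5F1C changed by 0.70 and ATP5MD by 0.27 in ΔSE12313-b, and by 0.74 and 0.28 in ΔE2. Copy number was not measured here, and the part of it in these results was not tested.

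**Figure D4:**
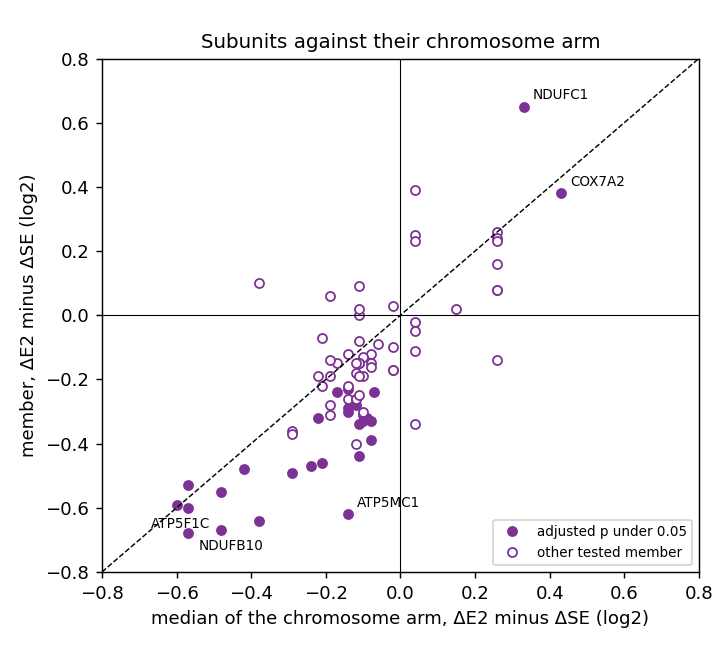
Difference of ΔE2 minus ΔSE12313-b (log2) of each of 83 tested members against the median difference of the protein-coding genes on its chromosome arm, with the line of equality dashed. Filled points have an adjusted p under 0.05. ATP5F1C and COX7A2 lie near the line, while ATP5MC1 lies below it (-0.62, arm median -0.14).

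Genes that build, feed and regulate the chain were read from lists of known genes, and the shares of all genes called are those given above: 34.7% higher and 19.4% lower in ΔE2, 43.0% and 16.4% in ΔSE12313-b. Of 54 tested assembly factors, which insert cofactors and join the subunits, 31 rose and 7 fell in ΔE2 (57.4% higher) and 29 rose and 4 fell in ΔSE12313-b (53.7% higher). With centred libraries 18 were higher and 10 lower in ΔE2, and 22 and 10 in ΔSE12313-b, and after quantile normalization 17 and 10, and 18 and 11, beside the shares of all genes given for these scalings. At least 2-fold higher in both deletions were ECSIT of complex I (1.11 and 1.52), COX20 (1.10 and 1.28) and COA7 (1.08 and 1.28) of complex IV, and FMC1 of complex V (1.46 and 1.40). At least 2-fold lower in both were SDHAF4 of complex II (-1.58 and -1.29) and COX19 of complex IV, a copper protein (-1.11 and -1.20). FMC1 had 21 and 17 reads in the control libraries, and SDHAF4 had 24, 23 and 12 in the ΔE2 libraries. The tested assembly factors of complex III numbered 6, with 3 higher and 1 lower in each deletion, and those of complex V 5, with 3 higher and 0 lower in each.

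Of 17 genes for mobile carriers and side entries of electrons, 11 rose and 0 fell in ΔE2 (64.7% higher) and 13 rose and 0 fell in ΔSE12313-b (76.5%). With centred libraries 9 were higher and 0 lower in ΔE2, and 8 and 2 in ΔSE12313-b. At least 2-fold higher in both were GPD2, the glycerol-3-phosphate dehydrogenase of the inner membrane, from 1.04 FPKM in the control to 5.12 in ΔE2 and 6.03 in ΔSE12313-b (group means, changes of 2.19 and 2.42), PDSS1, which makes the side chain of coenzyme Q (2.06 and 2.54), COQ2, which attaches that chain (1.24 and 1.34), and COQ3, a methyltransferase of the same pathway (1.31 and 1.21). PDSS1 had 21 and 18 reads in the control libraries, and COQ3 had 24 and 28. Of the 13 tested genes of the tricarboxylic acid cycle, 13 were called higher in ΔSE12313-b (100%) and 11 in ΔE2 (84.6%) on FPKM as deposited. With centred libraries these counts were 9 and 7, with 1 lower in ΔE2, and after quantile normalization 7 and 6. SUCLG1 of succinyl-CoA ligase rose by at least 2-fold in both (1.37 and 1.45). Of 8 tested uncoupling proteins and nucleotide carriers 6 rose in each deletion (75.0%) and 1 fell in ΔE2, and with centred libraries 5 were higher and 1 lower in each. In this list VDAC3, a pore of the outer membrane (1.85 and 1.72), and UCP2 (1.25 and 1.40) were at least 2-fold higher in both. Of 15 tested regulators of mitochondrial biogenesis 7 rose and 3 fell in ΔE2 (46.7% higher) and 8 rose and 3 fell in ΔSE12313-b (53.3% higher). With centred libraries 7 were higher and 5 lower in each. POLG2, the accessory subunit of the mitochondrial DNA polymerase, was at least 2-fold lower in both (-1.12 and -1.12). HIGD2A, kept as a list of its own, changed by -0.02 in ΔE2 and rose by 0.45 in ΔSE12313-b, where it was not called with centred libraries.

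Some values rest on reads that more than 1 gene may claim. NDUFC2-KCTD14 and ATP5MF-PTCD1 are readthrough transcripts that share exons with NDUFC2 and ATP5MF, and many subunits have processed pseudogenes elsewhere in the genome. ATP5MF-PTCD1 had the lowest mean of the tested members, 2.47 to 5.42 FPKM, and rose by 0.64 ± 0.12 and 0.94 ± 0.12, beside 0.72 ± 0.12 and 0.91 ± 0.12 for ATP5MF. Mapping allowed up to 10 sites per read by the methods of the study. How such reads, and reads of the other strand, were counted in the table is not given in the sources used here.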

How the data were processed

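RNA of 8 EA.hy926 libraries was analysed. Per the labels, the authors made directional libraries from rRNA-depleted RNA and sequenced single ends. The submitters' processing notes name Trim Galore 0.4.4, STAR 2.5.4b, featureCounts and GRCh37. The authors deposited FPKM for 65572 RefSeq transcripts, of which 42 rows (0.0641%) name no gene and were left out. The program behind these FPKM is not given in the sources used here. The values were whole multiples of 1 read within 0.1 read for 100% of those checked, which gave the reads per library. Floors and shares cover counting error only.

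Each gene was represented by its transcript of highest mean FPKM, which reduced 209 member transcripts to 92 genes. A gene was tested if it reached 0.5 FPKM in 2 or more libraries (13789 genes). The test was that of limma (version 3.58.1, R version 4.3.3) on the log2 of FPKM plus 0.1 (3 groups in 1 model, variance trend, two-sided, Benjamini-Hochberg over all genes). These fold changes understate those of low genes. The reads recovered from the FPKM were tested with limma voom as an alternative, and edgeR was not run. Tested on simulated data for the ΔE2 comparison over 13789 genes, the fit called 67% of 100 genes changed 2-fold, 92% of 100 changed 4-fold and 12 unchanged genes. The simulated libraries were drawn around the control means with 1 common spread. They held no differences between clones or between chromosome arms, so these shares do not carry over to the real clones.

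Alternatives were other pseudocounts (0.01 and 1), filters, scalings, transcripts and thresholds, a fit without the variance trend, a fit of only the groups compared, a replicate block, the chromosome arm as reference and leaving out each library. Groups and replicate numbers are those of the labels. Members and lists were chosen with earlier results of these data known. Named were members changed at least 2-fold, the 5 largest rises and falls in each deletion, paralogs, SDHA to SDHD and CYC1. The highest and lowest of each complex and those not tested were also named. Of each list, genes changed at least 2-fold in both deletions were named, up to the 3 largest changes per direction in each deletion. Further genes (such as UQCRC2, NDUFV2, NDUFA1 and NDUFS6) were named after their values were seen. Promoters are from RefSeq on GRCh38.p14, and gene positions are those of the table on GRCh37.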

Additional observations from a re-analysis of the deposited data

Results flagged for a closer look

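Levels differed between the 2 deletions in 28 members, by limma's direct comparison of ΔE2 with ΔSE12313-b (adjusted p under 0.05). Values are log2 differences of ΔE2 minus ΔSE12313-b. In 13 of the 28 the difference was also called with centred libraries and after quantile normalization. Of these, ATP5F1C (-0.59), ATP5MC1 (-0.62), ATP5MD (-0.55), COX6B1 (-0.46), NDUFA9 (-0.48), NDUFAB1 (-0.53), NDUFB10 (-0.68), NDUFB5 (-0.64), NDUFB8 (-0.67), UQCRC1 (-0.47) and UQCRC2 (-0.60) were lower in ΔE2, and COX7A2 (0.38) and NDUFC1 (0.65) were higher. Neither scaling takes out a shift of a whole chromosome arm. Relative to the arm median, the differences were 0.01 (ATP5F1C), 0.04 (NDUFAB1), -0.04 (UQCRC2), -0.05 (COX7A2), -0.06 (NDUFA9), -0.07 (ATP5MD) and -0.11 (NDUFB10). They were -0.19 (NDUFB8), -0.23 (UQCRC1), -0.25 (COX6B1), -0.26 (NDUFB5), 0.31 (NDUFC1) and -0.48 (ATP5MC1) in the rest. The other 15, all lower in ΔE2, were ATP5F1A (-0.32), ATP5F1B (-0.29), ATP5MPL (-0.49), COX5B (-0.33), COX6A1 (-0.30), COX7A2L (-0.24), COX7C (-0.34), NDUFA10 (-0.39), NDUFA2 (-0.44), NDUFA5 (-0.33), NDUFA8 (-0.24), NDUFB2 (-0.31), NDUFS3 (-0.23), UQCR10 (-0.32) and UQCRH (-0.28).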

How the results depend on the processing

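Pairs of values below are for ΔE2 and ΔSE12313-b against the control. Quantile normalization gave 25 and 36 members higher, 8 and 11 lower, 2 and 4 at least 2-fold changed, and 6 higher and 11 lower in ΔE2 than in ΔSE12313-b. Of all 13789 genes, 1338 were then higher and 1581 lower in ΔE2 than in ΔSE12313-b. Centred libraries gave 1 and 4 lower, 2 and 4 at least 2-fold changed, and 6 higher and 13 lower between the deletions. The medians with centred libraries were 0.27 and 0.34 for all members, 0.26 and 0.30 for complex I, 0.14 and 0.08 for II, 0.22 and 0.34 for III, 0.26 and 0.38 for IV and 0.42 and 0.60 for V, and after quantile normalization 0.10 and 0.20, 0.12 and 0.23, -0.04 and -0.07, 0.04 and 0.14, 0.07 and 0.15, and 0.29 and 0.43. Single members that changed sign under quantile normalization were, in ΔE2, COX4I1 (-0.13), NDUFB5 (-0.27), NDUFB8 (-0.01), NDUFV1 (-0.27) and UQCRH (-0.19), and in ΔSE12313-b ATP5MC2 (-0.02), COX4I1 (-0.28), COX7A2 (-0.47), COX7A2L (-0.35), NDUFB4 (-0.54), NDUFB9 (-0.06), SDHA (-0.07), SDHC (-0.07), SDHD (-0.29), UQCRB (-0.02) and UQCRH (-0.06). With centred libraries COX4I1 (-0.01) and COX7A2 (-0.26) did so in ΔSE12313-b. Relative to the chromosome arm, SDHC turned to -0.03 in ΔSE12313-b, and the differences between the deletions of ATP5F1C and COX7A2 turned to 0.01 and -0.05. Of the changes of single members, this reference moved 73 beyond their spread, turned 3 and left 53, while 85 kept direction and call after quantile normalization and 103 with centred libraries. The cause was not tested.

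Thresholds changed counts by construction: 25 and 45 members, and 7 between the deletions, passed 1.5-fold, and 15 were lower in ΔE2 than in ΔSE12313-b at an adjusted p under 0.01. Shares of all genes are not given for these thresholds or for the replicate block. With every gene above 0 in 2 libraries tested, COX7B2 and NDUFA4L2 were called lower in ΔE2 (2 members) and COX7B2 in ΔSE12313-b (1 member), on at most 2 and 7 reads in a library. The replicate block gave 43 and 57 higher, 0 and 0 lower, and 2 higher and 18 lower between the deletions. Replicate numbers did not pair the samples (correlations of 0.11, -0.08 and -0.07 between same-numbered clones).

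Leaving out a control library leaves 1 control, which is then assumed to vary like the clones. Shares of all genes are not given for fits with a library left out. Leaving out 1 library at a time gave 40 to 56 higher, 0 to 0 lower and 5 to 7 at least 2-fold changed in ΔE2, 52 to 63, 0 to 1 (NDUFA7, without ΔSE12313-b replicate 3) and 13 to 17 in ΔSE12313-b, and 2 to 5 higher (5 without ΔSE12313-b replicate 3), 17 to 23 lower (17 without ΔE2 replicate 1) and 0 to 0 at 2-fold between the deletions. Medians ran from 0.40 to 0.46 and 0.59 to 0.64 over all members, 0.37 to 0.46 and 0.57 to 0.63 in complex I, 0.24 to 0.34 and 0.33 to 0.39 in II, 0.33 to 0.44 and 0.59 to 0.66 in III, 0.37 to 0.46 and 0.58 to 0.73 in IV, and 0.54 to 0.65 and 0.86 to 0.93 in V. The fewest reads behind a tested value, 80, limit the precision of the lowest members, and 2 control libraries limit every comparison with the control.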
